A study of Mus musculus with 9 samples.

Results

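The genes for neurotransmitter receptors were followed in the spinal cord of B10.PL mice. They were taken as every gene whose probe sets carry exactly 1 gene symbol in the array annotation, where that symbol starts with Gria, Grik, Grin or Grm and a digit, or with Gabra, Gabrb, Gabrg, Gabrd, Gabbr, Glra, Glrb, Chrn, Chrm, Htr, Drd or Adra. These letters matched 52 of 8251 genes, of which 3 are HtrA serine peptidases that share only the letters Htr and were left out. The remaining 49 genes encode 4 AMPA, 3 kainate and 4 NMDA receptor subunits and 1 metabotropic receptor for glutamate, 8 GABA-A and 1 GABA-B receptor subunits, 2 glycine receptor subunits, 8 nicotinic and 2 muscarinic acetylcholine receptor genes, and 11 serotonin, 3 dopamine and 2 alpha-adrenergic receptor genes. Each gene was read through 1 probe set, and the choice was made by probe set name and mean signal, not by how the groups differed.

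Total RNA of spinal cord was measured on 9 arrays in 3 groups of 3. Mice of the first group had EAE, experimental autoimmune encephalomyelitis, in which immune cells attack the brain and spinal cord and which serves as a laboratory model for multiple sclerosis. They received calcitriol, the active vitamin D hormone, at 200 ng. Mice of the second group had EAE and received placebo, and the cords of both EAE groups were taken 6 h after treatment. The third group was naive mice of the same strain. The labels give neither a placebo nor a time for the naive mice, so that EAE and the placebo treatment cannot be told apart against naive cord, and they give no age, sex, disease score or way of inducing EAE. They do not say whether the 3 arrays of a group came from separate animals, and the p-values therefore measure the spread between arrays, which may be partly technical. For calcitriol replicate 6 the sample title gives a D2 compound, whereas its description gives D3, and the array was kept in the group. The values of Drd2, Gabrg1, Grik2, Gria1, Chrnd and Chrng are given with and without it.

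Ionotropic receptors are ion channels that open when they bind a transmitter, within the time of a single synaptic event. Those for glutamate, acetylcholine and, in one case, serotonin excite the cell, whereas those for GABA and glycine let chloride through and usually inhibit it. Metabotropic receptors act more slowly through G proteins. In the spinal cord glutamate carries most fast excitation, glycine and GABA share the fast inhibition of motor and sensory circuits, and serotonin, noradrenaline and dopamine reach the cord mainly in fibres descending from the brainstem.

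The deposited values are linear signal intensities, 1 per probe set and array. Their median was between 111 and 136 on the 9 arrays. Signals were scaled linearly to a common trimmed mean of 193 and raised to a floor of 19.3 where they lay below it. The share of probe sets at the floor was between 6.12% and 11.3% per array. Log2 signals of all tested probe sets correlated at r = 0.899 to 0.938 between the calcitriol arrays, 0.921 to 0.936 between the placebo arrays and 0.765 to 0.878 between the naive arrays, so the naive arrays differed most among themselves. The log2 ratio of the 5′ to the 3′ beta-actin control probe sets, a measure of RNA integrity and of cDNA length, was -0.67 ± 0.16 in calcitriol arrays, -0.80 ± 0.35 in placebo arrays and -0.05 ± 0.19 in naive arrays (SD, n = 3 each), and the EAE and naive ranges did not overlap.

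Of the 49 receptor genes, 48 were above the floor on at least 3 arrays and were tested, and 38 were above it on all 9. The gene left untested was Htr1f, a serotonin receptor, which was above the floor on placebo replicate 5 and naive replicate 4 alone. Genes were tested with limma across all 12177 probe sets that passed the same filter, and p-values were adjusted by the Benjamini-Hochberg method within each comparison at a threshold of 0.05.

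No receptor gene passed that threshold in any of the 3 comparisons in the fit used here. With exact zeros treated as missing, limma called Glrb lower in calcitriol-treated EAE than in naive cord (limma adjusted p = 0.0494). When limma weighted the arrays by their agreement, it called Gabra2 and Glrb lower in placebo-treated EAE than in naive cord, and in calcitriol-treated EAE it called Gabra2, Glrb and Chrm4 lower and Chrnd higher, among 639 and 1014 probe sets called in all. Of all tested probe sets, limma called 0.936% in placebo-treated EAE against naive cord, 2% in calcitriol-treated EAE against naive cord and 0% in calcitriol against placebo. At an unadjusted limma p under 0.05, 7 receptor genes were lower and 0 higher in placebo-treated EAE than in naive cord, where 3.79% of all probe sets were lower and 5.54% higher at that level. One of the 7, Htr2c, passed the filter through the naive arrays and was at the floor on all placebo arrays, so that it had to differ. In calcitriol-treated EAE against naive cord 4 were lower and 1 higher, beside 5.26% of all probe sets lower and 6.68% higher. In calcitriol against placebo 0 were lower and 3 higher, beside 1.31% and 1.27% of all probe sets. One of the 3, Grik2, likewise passed the filter through the calcitriol arrays. The 95% interval lay within a 2-fold change in either direction for 29 of the 48 genes in placebo against naive, for 26 in calcitriol against naive and for 31 in calcitriol against placebo. For the others a 2-fold change lies within the interval. A gene that missed the threshold is therefore not shown to be unchanged.

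The direction of the differences was uneven against naive cord. In placebo-treated EAE 39 of the 48 genes had a lower mean log2 signal than in naive cord, with a median difference of -0.20, beside 52.3% of all probe sets lower and a median of -0.02. In calcitriol-treated EAE 32 of 48 were lower than in naive cord, with a median of -0.18 beside -0.02 over all probe sets. These 2 comparisons share the naive arrays. Between the EAE groups 20 were lower and 28 higher with calcitriol, with a median of 0.06 beside -0.00 over all probe sets. Without the scaling step the median of all probe sets shifts by 0.13 in placebo against naive and by 0.11 in calcitriol against naive, and 29 and 28 of the 48 genes were then lower. Below the median of all probe sets lay 34 to 41 genes in placebo and 29 to 34 in calcitriol over the alternatives tried. In whole tissue a lower signal from fewer cells of a type cannot be told apart from less RNA in each of them.

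**Figure D1:**
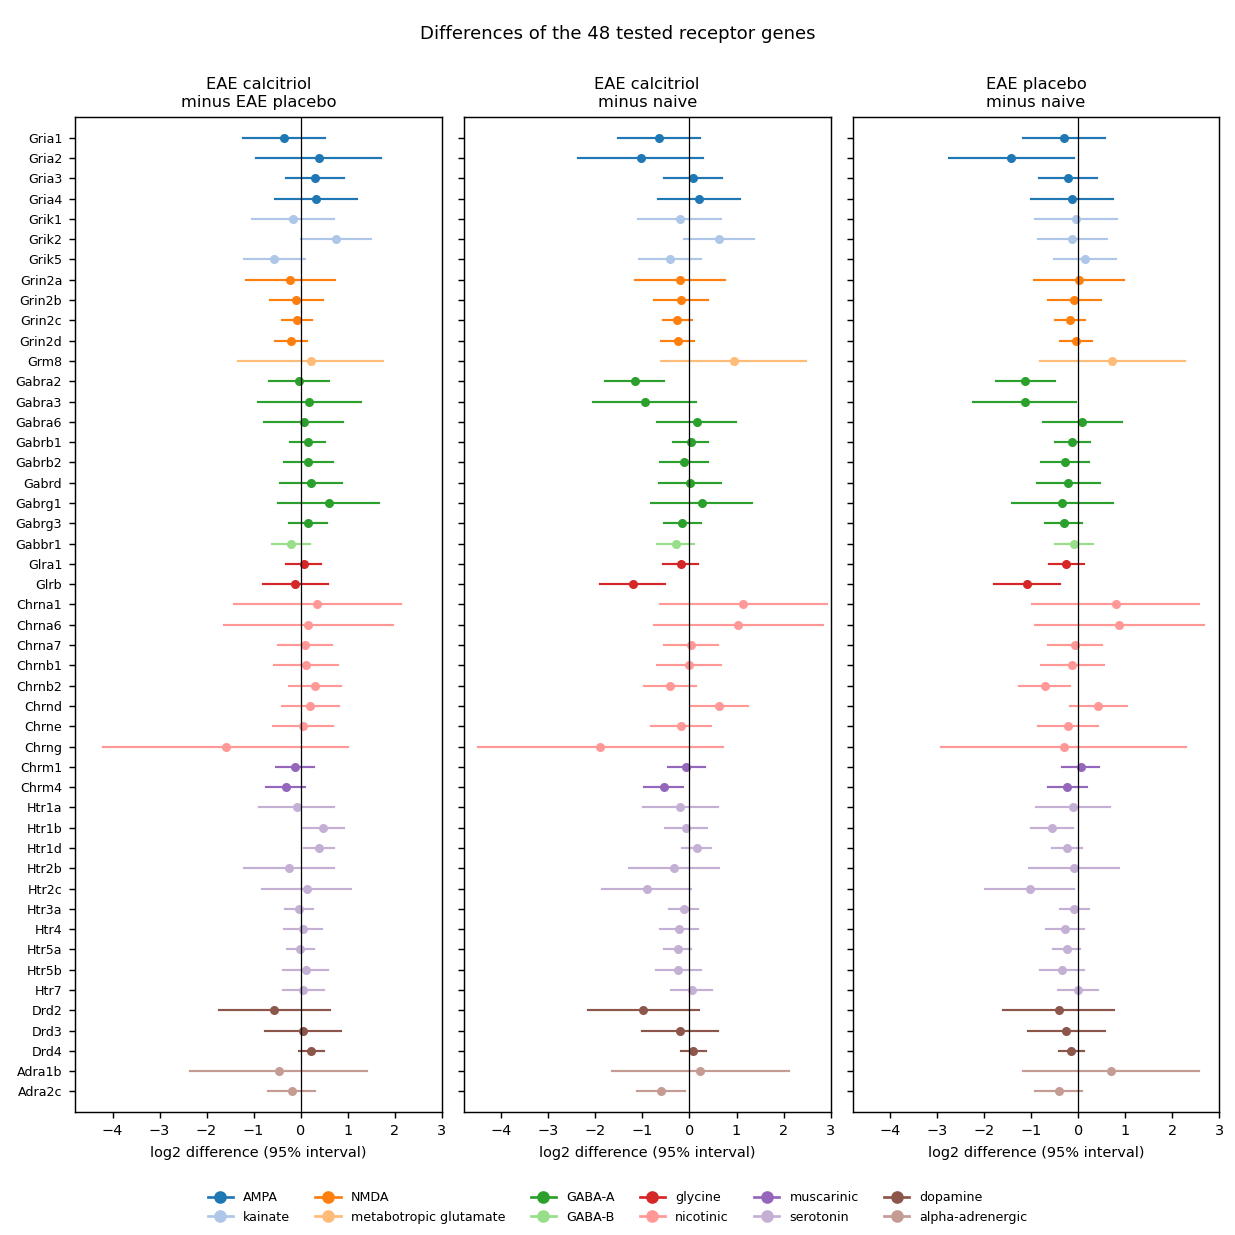
Log2 differences of the 48 tested receptor genes (rows, grouped and coloured by receptor family) in calcitriol-treated EAE against placebo-treated EAE, calcitriol-treated EAE against naive, and placebo-treated EAE against naive. Points are limma estimates (n = 3 arrays a group), lines are 95% intervals and the vertical line marks no difference. Most points lie left of that line in both comparisons with naive cord, 32 and 39 of 48, and Gabra2 and Glrb are among those whose intervals do not reach it.

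Over the same arrays, 14 of 16 neuron marker genes were measured, and 11 of the 14 were lower in placebo-treated EAE than in naive cord, with a median of -0.49 and none past the threshold. In calcitriol-treated EAE 11 of 14 were also lower than in naive cord, with a median of -0.81. Wholly below the naive arrays lay 4 of the 14 in placebo and 9 in calcitriol, and 1 lay wholly above in each. Of all probe sets 7.13% and 7.69% lay wholly below, and 7.39% and 8.45% wholly above. The summed signal of the neuron markers ranged over 5848 to 6477 in calcitriol arrays, 6207 to 8536 in placebo arrays and 8613 to 16566 in naive arrays, and none was at the floor on all 9 arrays. Of 10 microglia and macrophage markers, 1 passed the threshold as higher in placebo-treated EAE and 3 in calcitriol-treated EAE against naive cord. In placebo 9 were higher and 1 lower, and in calcitriol 7 were higher and 3 lower. Wholly above the naive arrays lay 4 in placebo and 6 in calcitriol, and 0 lay wholly below. Their summed signal was 3044 to 3998 in calcitriol arrays, 2735 to 3465 in placebo arrays and 1985 to 2184 in naive arrays, where 1 of the 10 was at the floor throughout. Of 7 neutrophil markers 3 passed as higher in each EAE group against naive cord. All 7 were higher in placebo, and 6 were higher and 1 lower in calcitriol. Of all probe sets 0.936% were called in placebo and 2% in calcitriol against naive cord, in either direction. Of 6 T cell markers measured, 2 were higher and 4 lower than in naive cord in each EAE group. Of 6 astrocyte markers measured, 3 were higher and 3 lower in placebo, and 2 were higher and 4 lower in calcitriol. No T cell or astrocyte marker passed the threshold. Of 7 oligodendrocyte markers measured, 6 were lower in calcitriol-treated EAE than in naive cord, 3 of them without overlap, beside 7.69% of all probe sets. The 1 that passed the threshold was the myelin gene Mog, at -1.83 ± 0.30 (limma adjusted p = 0.0158). In placebo-treated EAE 5 of the 7 were lower, 3 without overlap, beside 7.13% of all probe sets, and none passed the threshold. Their summed signal was 4210 to 6696 in calcitriol arrays, 5872 to 6334 in placebo arrays and 5714 to 7392 in naive arrays, and none was at the floor throughout a group. The part of these markers and of the beta-actin ratio in the receptor values was not tested.

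The receptor genes nearest to the threshold against naive cord were Gabra2 and Glrb, subunits of the 2 inhibitory channel families. Their promoters are shown here because both genes were lower in both EAE groups without overlap with the naive arrays. Each sequence covers 250 bases before and 50 bases after the annotated start, from RefSeq on GRCm38.p6, for Gabra2 at chr5:71095800-71096099 and for Glrb at chr3:80913611-80913910, both on the minus strand and written 5′ to 3′ along the gene. Capitals mark the GC box GGGCGG or its reverse complement CCGCCC.
Gabra2: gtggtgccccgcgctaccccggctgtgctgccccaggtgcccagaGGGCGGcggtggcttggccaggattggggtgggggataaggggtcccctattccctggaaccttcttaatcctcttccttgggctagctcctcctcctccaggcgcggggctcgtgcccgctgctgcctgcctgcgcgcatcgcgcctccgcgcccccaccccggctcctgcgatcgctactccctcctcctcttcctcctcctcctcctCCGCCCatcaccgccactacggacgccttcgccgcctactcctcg
Glrb: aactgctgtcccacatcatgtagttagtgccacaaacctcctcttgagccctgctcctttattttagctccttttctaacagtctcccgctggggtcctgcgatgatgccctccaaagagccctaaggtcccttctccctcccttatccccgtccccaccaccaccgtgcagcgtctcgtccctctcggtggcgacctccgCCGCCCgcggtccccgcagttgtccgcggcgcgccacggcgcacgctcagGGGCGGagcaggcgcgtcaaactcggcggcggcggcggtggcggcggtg
The Gabra2 window is 70.0% G or C with 25 CpG dinucleotides, the Glrb window is 65.7% G or C with 30, and each holds 2 GC boxes. The window of Htr1b, a gene wholly below naive cord in placebo-treated EAE only, is 53.3% G or C with 11 CpG dinucleotides and holds 0 GC boxes. Promoter windows were at hand for 36 of the 49 receptor genes, 44 windows in all. Their median G and C content was 58.5% against 52.7% over all 32851 mouse promoter windows of the same length, and their median CpG count was 11.5 against 7. A GC box on either strand was present in 43.2% of the receptor windows and 35.7% of all windows. The TATA box letters TATAAA, on either strand, were present in 9.09% and 13.6%, and the nuclear receptor half-site AGGTCA, on either strand, in 13.6% and 16.3%. Neither printed window holds AGGTCA or its reverse complement. These are matches of letters and not measured binding.

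Among the GABA-A receptor genes, whose products assemble as pentameric chloride channels, Gabra2 came nearest to the threshold against naive cord. Gabra2 encodes the alpha2 subunit. Its signal was 65.0, 72.6 and 48.8 in calcitriol arrays, 54.7, 52.1 and 86.9 in placebo arrays, and 153, 122 and 139 in naive arrays. Each of the 6 EAE values was smaller than each naive value, and the EAE groups overlapped. The mean was 2.19-fold lower in placebo-treated EAE than in naive cord, a log2 difference of -1.13 ± 0.28 (SE, n = 3 a group) with a 95% interval of -1.76 to -0.50 and an adjusted limma p of 0.141. In calcitriol-treated EAE it was 2.24-fold lower, -1.16 ± 0.28, with an interval of -1.79 to -0.53 and an adjusted limma p of 0.0843. When 1 array at a time was left out, the difference stayed between -1.36 and -0.99 in placebo and between -1.29 and -0.999 in calcitriol against naive.

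Gabra3, the alpha3 subunit gene, lay close to the floor. Its signal was 41.0, 19.5 and 27.8 in calcitriol arrays, at the floor, 40.6 and at the floor in placebo arrays, and 32.9, 51.0 and 96.6 in naive arrays. The groups overlapped, and the log2 difference from naive was -1.14 ± 0.49 in placebo-treated EAE (limma adjusted p = 0.499) and -0.95 ± 0.49 in calcitriol-treated EAE (limma adjusted p = 0.506). Without naive replicate 4 these were -0.73 and -0.54. The gamma subunit genes differed less from naive cord. Gabrg3 had 326, 273 and 376 in calcitriol arrays, 235, 308 and 332 in placebo arrays and 374, 327 and 374 in naive arrays, a difference of -0.15 ± 0.18 in calcitriol-treated EAE and -0.31 ± 0.18 in placebo-treated EAE from naive. Gabrg1 was at 65.9, 35.4 and 32.4 in calcitriol arrays and at 38.8, the floor and 29.0 in placebo arrays, a difference of 0.60 ± 0.48 for calcitriol against placebo (95% interval -0.47 to 1.67) that was 0.28 without calcitriol replicate 6 and 0.33 without placebo replicate 5. Across the 8 GABA-A genes 7 were lower in placebo-treated EAE than in naive cord, with a median of -0.29 that was -0.16 without the scaling step, and 4 of 8 were lower in calcitriol-treated EAE, with a median of -0.05 that was 0.07 without the scaling step. Between the EAE groups 7 of the 8 were higher with calcitriol, with a median of 0.16 and intervals that all included 0. Of the other members, Gabrb2, a beta subunit gene, did not overlap between the EAE groups, with 133, 118 and 111 in calcitriol arrays and 107, 106 and 110 in placebo arrays. The difference was 0.17 ± 0.23, and the naive arrays, at 180, 115 and 107, overlapped both groups. Gabbr1, a subunit of the G protein-coupled GABA-B receptor, had 805, 729 and 548 in calcitriol arrays, 821, 808 and 745 in placebo arrays and 695, 936 and 909 in naive arrays, and the 3 groups overlapped.

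Glycine receptors combine alpha subunits with the beta subunit encoded by Glrb, which ties the channel to the scaffold protein gephyrin. Glrb had a signal of 162, 200 and 181 in calcitriol arrays, 226, 194 and 170 in placebo arrays, and 728, 353 and 281 in naive arrays. Each EAE value was again smaller than each naive value, while naive replicate 2 was far above the other 2. The log2 difference from naive was -1.21 ± 0.31 in calcitriol-treated EAE (95% interval -1.90 to -0.51, limma adjusted p = 0.103) and -1.09 ± 0.31 in placebo-treated EAE (-1.78 to -0.40, limma adjusted p = 0.215). Without naive replicate 2 these were -0.80 and -0.69, with adjusted limma p-values of 0.0520 and 0.144. Without naive replicate 4 the calcitriol difference was -1.49 and passed the threshold, at an adjusted limma p of 0.0447. Glra1, the main adult alpha subunit gene of spinal cord, did not separate the groups. Its signal was 422, 433 and 436 in calcitriol arrays, 332, 462 and 457 in placebo arrays and 541, 524 and 418 in naive arrays. The difference from naive was -0.19 ± 0.17 in calcitriol-treated EAE, with an interval of -0.56 to 0.18, and -0.25 ± 0.17 in placebo-treated EAE, with an interval of -0.62 to 0.12. Both intervals leave room only for changes of less than 2-fold.

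**Figure D2:**
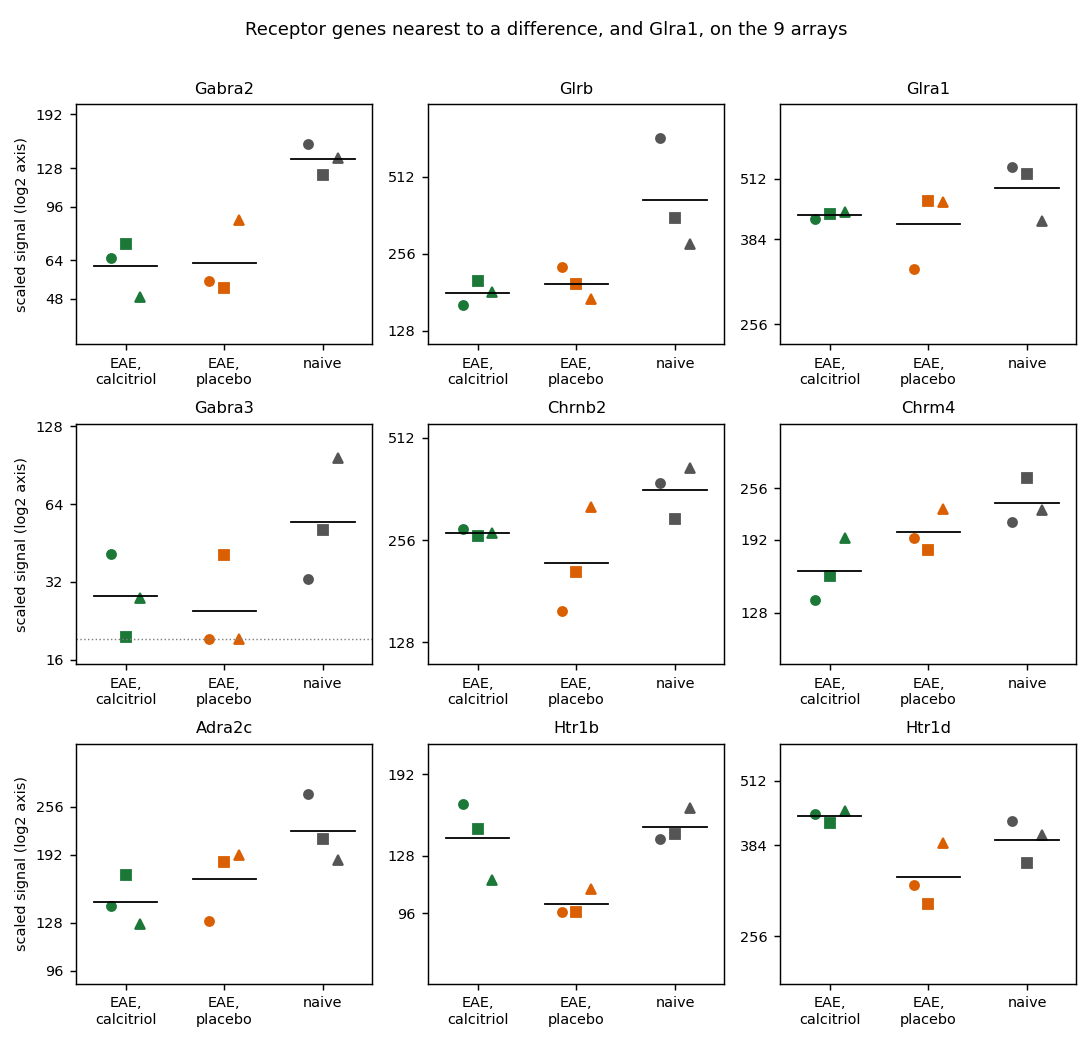
Scaled signal (log2 axis) of Gabra2, Glrb, Glra1, Gabra3, Chrnb2, Chrm4, Adra2c, Htr1b and Htr1d on each array, by group. Circle, square and triangle are the arrays of a group in order of replicate number, bars are geometric means (n = 3) and the dotted line is the floor of 19.3. Gabra2 and Glrb lie lower on all 6 EAE arrays than on the naive arrays, and Htr1b and Htr1d lie higher on all 3 calcitriol arrays than on the placebo arrays.

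AMPA receptors carry fast glutamate transmission, and their GluA2 subunit, encoded by Gria2, keeps the channel nearly impermeable to calcium. The Gria2 probe set used here had 85.1, 153 and 98.6 in calcitriol arrays, 153, 75.8 and 49.7 in placebo arrays, and 558, 184 and 108 in naive arrays. The groups overlapped, and naive replicate 2 was far above every other array. The difference from naive was -1.42 ± 0.59 in placebo-treated EAE (95% interval -2.75 to -0.10, limma adjusted p = 0.477) and -1.04 ± 0.59 in calcitriol-treated EAE (-2.36 to 0.29, limma adjusted p = 0.552). Without naive replicate 2 these were -0.76 and -0.38, and without naive replicate 4 the calcitriol difference was -1.56. A second Gria2 probe set, 92947_s_at, had 189, 285 and 261 in calcitriol arrays, 332, 258 and 298 in placebo arrays, and 596, 368 and 304 in naive arrays. The third, 92946_f_at, had 77.2, 47.7 and 28.2 in calcitriol arrays, 71.1, 40.8 and 29.0 in placebo arrays, and 78.5, 105 and 85.2 in naive arrays. All 3 tested probe sets of Gria2 were lower in both EAE groups than in naive cord, by 0.46 to 1.42 on the log2 scale in placebo and by 0.75 to 1.04 in calcitriol. One further Gria2 probe set was at the floor on every array and was not tested.

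Gria1, encoding the GluA1 subunit, gave different pictures with its 2 probe sets. With the one used here, 92943_at, its signal was 90.5, 175 and 234 in calcitriol arrays, 175, 149 and 293 in placebo arrays and 345, 194 and 211 in naive arrays, and the groups overlapped. With the other, 92944_at, it was 145, 129 and 137 in calcitriol arrays, 138, 134 and 145 in placebo arrays, and 259, 207 and 200 in naive arrays. Those EAE arrays lay within a narrow range below all naive arrays. The difference of 92944_at from naive was -0.69 ± 0.17 in calcitriol-treated EAE (limma adjusted p = 0.0819) and -0.67 ± 0.17 in placebo-treated EAE (limma adjusted p = 0.139), against -0.65 ± 0.39 and -0.30 ± 0.39 for 92943_at. The calcitriol difference of 92943_at was -0.26 without calcitriol replicate 6 and -0.39 without naive replicate 2. The probe set 92944_at is not part of the counts over genes, and it is singled out here after its values were seen. Gria3 and Gria4, the remaining AMPA subunit genes, differed from naive cord by -0.22 and -0.14 in placebo-treated EAE and by 0.07 and 0.20 in calcitriol-treated EAE, all with intervals that include 0.

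**Figure D3:**
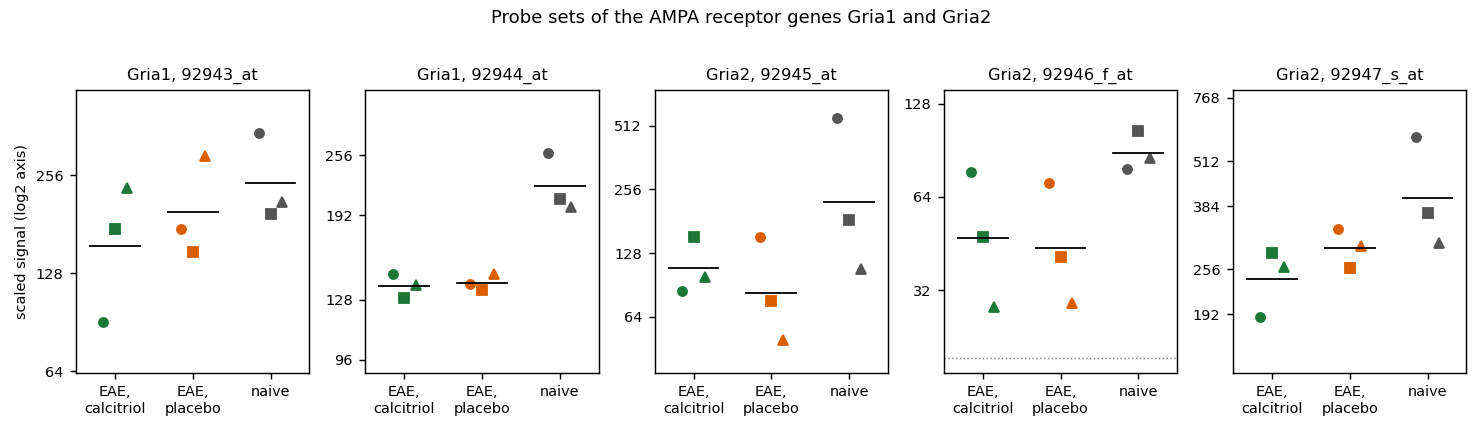
Scaled signal (log2 axis) of the 2 probe sets of Gria1 and the 3 tested probe sets of Gria2 on each array, by group. Circle, square and triangle are the arrays of a group in order of replicate number, and bars are geometric means (n = 3). The EAE arrays of the Gria1 probe set 92944_at lie between 129 and 145 and its naive arrays between 200 and 259, whereas the groups of 92943_at overlap.

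Kainate receptors are a further class of glutamate channel, found on both sides of the synapse. Grik2, encoding their GluK2 subunit, was at 48, 29.5 and 24.4 in calcitriol arrays and at the floor on all 3 placebo arrays, and in naive cord only replicate 3, at 25.0, was above the floor. The log2 difference of calcitriol from placebo was 0.76 ± 0.33 (95% interval 0.01 to 1.5, limma adjusted p = 1.00), with a value set by the floor on the placebo side, and 0.48 without calcitriol replicate 6. The gene passed the filter through its calcitriol arrays, so that these 2 groups had to differ. The second Grik2 probe set, 98864_s_at, was above the floor on all arrays and overlapped between the EAE groups, with a difference of 0.08 ± 0.25. Grik5, encoding GluK5, had 74.5, 81.8 and 75.9 in calcitriol arrays, 134, 76.7 and 143 in placebo arrays and 80.2, 130 and 107 in naive arrays. Its difference of calcitriol from placebo was -0.56 ± 0.29, and -0.84 without placebo replicate 5, and its second probe set gave -0.01 ± 0.20. Grik1, encoding GluK1, was above the floor on 3 of 9 arrays, 1 in each group.

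NMDA receptors are the calcium-permeable glutamate channels that need membrane depolarisation to open. Grin1, which encodes their obligatory subunit, was not analysed here, and the 4 genes measured encode the GluN2 subunits that set channel kinetics. Grin2d had 333, 337 and 349 in calcitriol arrays, 377, 440 and 362 in placebo arrays and 343, 396 and 486 in naive arrays. All calcitriol arrays lay below all placebo arrays, with a difference of -0.20 ± 0.15 and a 95% interval of -0.55 to 0.14. All 4 GluN2 genes were lower with calcitriol than in naive cord, by 0.17 to 0.25 on the log2 scale, with intervals that include 0. Grm8, the one metabotropic glutamate receptor gene measured, had 179, 133 and 141 in calcitriol arrays, 119, 130 and 140 in placebo arrays, and 135 and 185 on naive replicates 3 and 4, where naive replicate 2 was deposited as exactly 0. Its differences from naive, 0.94 ± 0.69 in calcitriol and 0.72 ± 0.69 in placebo, rest on that zero, and were -0.07 and -0.29 without it.

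Nicotinic receptors are acetylcholine-gated cation channels. In the nervous system Chrnb2 and Chrna7 encode widely used subunits, while Chrna1, Chrnb1, Chrnd, Chrne and Chrng encode those of the muscle receptor. Chrnb2 had 276, 263 and 268 in calcitriol arrays, 158, 207 and 320 in placebo arrays, and 378, 295 and 416 in naive arrays. The calcitriol arrays lay below the naive arrays without overlap and within a narrow range, while the placebo arrays were spread on both sides of them. The difference from naive was -0.42 ± 0.24 in calcitriol-treated EAE and -0.72 ± 0.24 in placebo-treated EAE, and the placebo difference had a 95% interval of -1.27 to -0.17 with an adjusted limma p of 0.340. Chrnd, the muscle delta subunit, was the one receptor gene with an unadjusted p under 0.05 in the higher direction against naive cord. It had 279, 500 and 524 in calcitriol arrays, 336, 315 and 448 in placebo arrays and 234, 241 and 345 in naive arrays, a difference of 0.64 ± 0.27 for calcitriol with an adjusted limma p of 0.383. The groups overlapped, but without calcitriol replicate 6 the calcitriol arrays lay above all naive arrays, with a difference of 0.93, and the difference from placebo was 0.50 instead of 0.21. None of 7 skeletal muscle markers passed the threshold in any comparison, which does not show them unchanged. Against naive cord 4 were higher and 3 lower in calcitriol, and 3 were higher and 4 lower in placebo. With calcitriol against placebo 4 were higher and 3 lower, and 1 of the higher lay wholly above placebo, beside 4.82% of all probe sets. The part of muscle tissue in the Chrnd values was not tested. Chrng had 754 and 801 on calcitriol replicates 6 and 7 and an exact 0 on replicate 8, against 785, 566 and 725 in placebo arrays and 950, 850 and 751 in naive arrays. Its difference of calcitriol from placebo was -1.60 ± 1.16 with that zero raised to the floor, 0.18 with it left out, and -2.46 without calcitriol replicate 6. A second Chrng probe set, 161215_at, was above the floor on every array. It had 152, 152 and 100 in calcitriol arrays, 152, 163 and 157 in placebo arrays and 125, 167 and 201 in naive arrays. Chrna1 and Chrna6 likewise had an exact 0 on naive replicate 4, while the other 8 arrays lay between 148 and 242 for Chrna1 and between 151 and 271 for Chrna6. Their intervals against naive, -0.63 to 2.92 and -0.76 to 2.83 in calcitriol-treated EAE, were computed with that zero at the floor. Without naive replicate 4 the Chrna1 difference was -0.04 instead of 1.15 in calcitriol and -0.39 instead of 0.80 in placebo. That of Chrna6 was -0.17 instead of 1.04 and -0.33 instead of 0.87.

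Muscarinic receptors are the G protein-coupled receptors for acetylcholine. Chrm4, an inhibitory subtype, had 138, 157 and 194 in calcitriol arrays, 194, 182 and 228 in placebo arrays and 212, 271 and 227 in naive arrays. All calcitriol arrays lay below all naive arrays, with a difference of -0.55 ± 0.18, a 95% interval of -0.96 to -0.13 and an adjusted limma p of 0.240. The placebo arrays lay between and overlapped both, with a difference of -0.23 ± 0.18 from naive. Chrm1, an excitatory subtype, differed by -0.07 ± 0.18 in calcitriol-treated EAE and by 0.06 ± 0.18 in placebo-treated EAE from naive cord.

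All 10 tested serotonin receptor genes, of which Htr2c had to be lower by the way it passed the filter, had a lower mean in placebo-treated EAE than in naive cord, with a median of -0.24, and 8 of 10 in calcitriol-treated EAE, with a median of -0.21, but without the scaling step these were 6 and 7 of 10, with medians of -0.11 and -0.09. Htr1b, an inhibitory receptor often placed on axon terminals, had 166, 146 and 113 in calcitriol arrays, 96.4, 96.8 and 109 in placebo arrays, and 139, 143 and 162 in naive arrays. The placebo arrays lay below the arrays of both other groups. The difference was 0.48 ± 0.20 for calcitriol against placebo (95% interval 0.03 to 0.93, limma adjusted p = 1.00) and -0.56 ± 0.20 for placebo against naive (limma adjusted p = 0.374). Htr1d, a close relative of Htr1b, had 441, 423 and 447 in calcitriol arrays, 321, 296 and 387 in placebo arrays and 427, 355 and 402 in naive arrays. Again the placebo arrays lay below all calcitriol arrays, with a difference of 0.39 ± 0.14 (95% interval 0.08 to 0.71, limma adjusted p = 1.00). Neither gene passed after adjustment over all probe sets, and both comparisons of Htr1b rest on the same 3 placebo arrays.

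Htr2c, an excitatory receptor found on motor neurons, was above the floor on all naive arrays, at 68.9, 42.7 and 20.9, and on 1 EAE array, calcitriol replicate 8 at 25.0. It entered the test through the naive arrays, and its difference of -1.03 ± 0.42 in placebo-treated EAE from naive (limma adjusted p = 0.466) is set by the floor and was -0.63 without naive replicate 2. Htr5a, a receptor that couples to inhibitory G proteins, had 848, 744 and 733 in calcitriol arrays, 749, 790 and 787 in placebo arrays and 962, 830 and 967 in naive arrays. Its placebo arrays lay below all naive arrays, at -0.24 ± 0.13, and calcitriol replicate 6 reached into the naive range. Htr3a, the ion channel among the serotonin receptors, had 816, 874 and 897 in calcitriol arrays, 853, 882 and 912 in placebo arrays and 1098, 875 and 855 in naive arrays. Its differences were -0.12 ± 0.14 in calcitriol and -0.09 ± 0.14 in placebo from naive, and the 95% interval of calcitriol against placebo was -0.34 to 0.27. Of the 8 genes with several tested probe sets, 3 had probe sets of opposite sign in each comparison with naive cord, and 4 in calcitriol against placebo. Gabra6 and Htr4 were among these in all 3 comparisons. The 3 probe sets of Htr4 differed from naive by -0.23, -0.47 and 0.31 in calcitriol-treated EAE. In placebo-treated EAE 2 of them were lower than in naive cord and 1 was higher.

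The dopamine receptor gene Drd2, an inhibitory subtype, had 40.4, 212 and 191 in calcitriol arrays, 178, 161 and 182 in placebo arrays, and 265, 198 and 239 in naive arrays. Calcitriol replicate 6, the array whose title names the D2 compound, was far below the others. All placebo arrays lay below all naive arrays, with a difference of -0.42 ± 0.53, a 95% interval of -1.60 to 0.76 and an adjusted limma p of 0.870. The SE is pooled over all 9 arrays, the low calcitriol array included. The difference of calcitriol from placebo was -0.56 ± 0.53 with that array and 0.21 without it, and from naive -0.98 ± 0.53 with it and -0.21 without it. Drd4, also an inhibitory subtype, had 533, 516 and 553 in calcitriol arrays, 431, 463 and 477 in placebo arrays and 548, 471 and 504 in naive arrays. The calcitriol arrays lay above the placebo arrays without overlap, at 0.23 ± 0.12 (95% interval -0.04 to 0.49). Adra2c, an inhibitory receptor for noradrenaline, had 141, 170 and 127 in calcitriol arrays, 129, 184 and 191 in placebo arrays and 276, 211 and 186 in naive arrays. The calcitriol arrays lay below all naive arrays, at -0.61 ± 0.22 (95% interval -1.11 to -0.10, limma adjusted p = 0.295), and the placebo arrays overlapped both groups. Adra1b, an excitatory receptor for noradrenaline, was at 22.4 on naive replicate 2 and between 80.0 and 302 on the other 8 arrays. Its difference from naive was 0.69 in placebo-treated EAE, and -0.46 without naive replicate 2.

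Groups without any overlap were counted over all families. In placebo against naive 6 of 48 genes lay wholly below the naive arrays, namely Gabra2, Glrb, Htr1b, Htr2c, Htr5a and Drd2, and 0 lay wholly above, beside 7.13% and 7.39% of all probe sets. In calcitriol against naive 5 lay wholly below, namely Gabra2, Glrb, Chrnb2, Chrm4 and Adra2c, and 0 wholly above, beside 7.69% and 8.45%. In calcitriol against placebo 1 lay wholly below, Grin2d, and 5 wholly above, namely Grik2, Gabrb2, Htr1b, Htr1d and Drd4, beside 5.17% and 4.82%. As shares of the 48 genes these are 12.5% wholly below naive in placebo and 10.4% in calcitriol, and 10.4% wholly above placebo with calcitriol. Htr2c and Grik2 were at the floor on all placebo arrays and passed the filter through the group where they were high, so that their separation follows from the filter. Over the 46 genes without them, 10.9% lay wholly below naive in placebo, beside 7.19% of the probe sets that were above the floor in every group, and 8.7% lay wholly above placebo with calcitriol, beside 4.69%.

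By array, the median receptor gene lay 0.04, -0.04 and -0.09 from its own mean over the 9 arrays on the log2 scale in calcitriol replicates 6, 7 and 8, -0.15, -0.04 and 0.03 in placebo replicates 1, 5 and 10, and 0.14, 0.22 and 0.12 in naive replicates 2, 3 and 4. Each naive array was thus above each EAE array. The highest of the 9 signals was on a calcitriol array for 14 genes, on a placebo array for 5 and on a naive array for 29. These are 29.2%, 10.4% and 60.4% of the receptor genes, beside 28.2%, 19.9% and 51.8% of all probe sets. The lowest signal was on a calcitriol array for 19 genes, on a placebo array for 22 and on a naive array for 7, and placebo replicate 1 alone held 15 of them. The naive arrays held the lowest signal for 46.4% of all probe sets and for 14.6% of the receptor genes. For the calcitriol arrays these shares were 26.6% and 39.6%, and for the placebo arrays 27.0% and 45.8%.

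**Figure D4:**
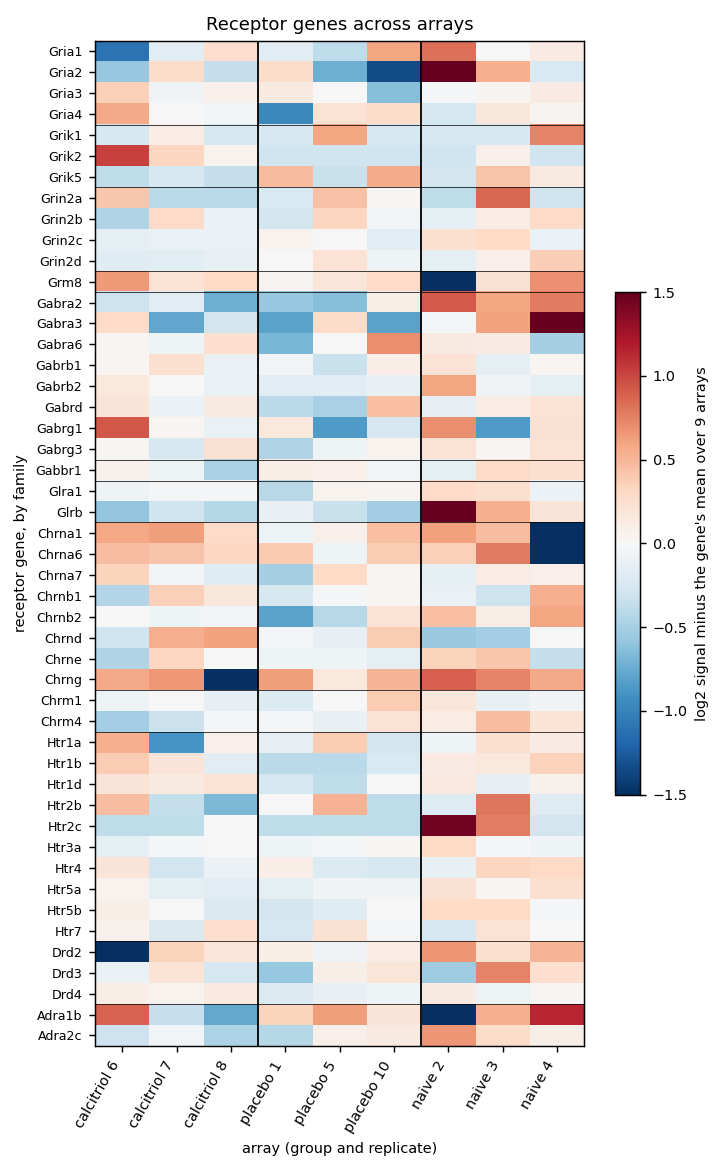
Heat map of the 48 tested receptor genes (rows, by family) on the 9 arrays (columns, by group), where colour is the log2 signal minus the mean of that gene over the 9 arrays, limited to 1.5 in either direction. The naive columns hold the highest signal for 29 of the 48 genes, beside 51.8% of all probe sets. The cells at the low end of the scale are the exact zeros of Chrng on calcitriol replicate 8, Grm8 on naive replicate 2 and Chrna1 and Chrna6 on naive replicate 4, together with Drd2 on calcitriol replicate 6 and Adra1b on naive replicate 2, which were not zeros.

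Several receptor genes are neighbours on a chromosome with no protein-coding gene between them in the RefSeq annotation. Gria2 and Glrb, which are adjacent, were both lower than naive in both EAE groups, as were most receptor genes, 39 of 48 in placebo and 32 in calcitriol. For both genes naive replicate 2 held the highest signal, and the differences were smaller without it, as given above. Gabra2 is adjacent to Gabrg1, whose difference from naive was 0.26 ± 0.48 in calcitriol-treated EAE and -0.34 ± 0.48 in placebo-treated EAE. Gabra6 and Gabrb2 are adjacent and differed from naive by 0.08 and -0.28 in placebo-treated EAE. The second Gabra6 probe set had the opposite sign. Chrnd and Chrng are adjacent and differed from naive by 0.43 and -0.30 in placebo-treated EAE. The 49 genes lie on 17 chromosomes.

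Genes that serve these receptors were read from lists of partners. Of 40 scaffold and auxiliary genes 21 were measured, and none passed the threshold in any comparison, with medians of -0.16 in placebo and -0.14 in calcitriol against naive and -0.00 in calcitriol against placebo. Wholly below naive lay 2 of the 21 in placebo and 3 in calcitriol, beside 7.13% and 7.69% of all probe sets. Wholly above lay 1 in each, beside 7.39% and 8.45%. In calcitriol against placebo 2 lay wholly below and 0 wholly above, beside 5.17% and 4.82%. Nsf, an ATPase that among other roles binds the GluA2 subunit, had 635, 672 and 681 in calcitriol arrays, 758, 494 and 673 in placebo arrays and 1247, 1057 and 939 in naive arrays. Its EAE arrays lay wholly below the naive arrays, at -0.70 ± 0.18 in calcitriol (limma adjusted p = 0.104) and -0.77 ± 0.18 in placebo (limma adjusted p = 0.117). Dlg4, the gene of the postsynaptic scaffold PSD-95, went the other way, with 61.7, 42.1 and 36.5 in calcitriol arrays, 47.6, 41.7 and 96.8 in placebo arrays and 21.1, 30.9 and 34.6 in naive arrays. Its EAE arrays lay wholly above the naive arrays, at 1.03 ± 0.40 in placebo (limma adjusted p = 0.422). Nptx1, which encodes a secreted pentraxin that clusters AMPA receptors, lay wholly below naive cord in placebo-treated EAE, at -0.52 ± 0.22. Gabarapl1 and Gabarapl2, relatives of a GABA-A receptor-associated protein, lay wholly below naive cord in calcitriol-treated EAE, at -0.66 ± 0.25 and -0.42 ± 0.19. With calcitriol against placebo the smallest p-values of the list were those of Dlg3, another scaffold of the PSD-95 family, at -0.69 ± 0.36 without overlap, Gphn, the gephyrin gene, at -0.63 ± 0.45, and Pick1, at 0.18 ± 0.15. Gphn was at the floor on calcitriol replicates 6 and 8 and on naive replicate 4. Of 34 genes for making, moving or breaking down transmitters 18 were measured and 16 tested. In calcitriol against naive 1 passed the threshold, beside 2% of all probe sets. Wholly below naive lay 4 of the 16 in each EAE group, and wholly above 1 in placebo and 0 in calcitriol. Between the EAE groups 1 lay wholly below and 1 wholly above, beside the same shares of all probe sets as given for the scaffold genes. Ache, the acetylcholinesterase gene, had 348, 296 and 253 in calcitriol arrays, 476, 430 and 393 in placebo arrays and 599, 456 and 486 in naive arrays. It fell by 0.78 on the log2 scale in calcitriol-treated EAE against naive cord (SE 0.17, n = 3 a group, limma adjusted p = 0.0473). That call held in 5 of 17 alternatives, with adjusted p-values between 0.00885 and 0.20, and in none of those that left out 1 array. Its calcitriol arrays also lay wholly below the placebo arrays, at -0.54 ± 0.17 (limma adjusted p = 1.00). Slc6a9, the glial glycine transporter, had 505, 626 and 439 in calcitriol arrays, 656, 579 and 657 in placebo arrays and 1138, 728 and 821 in naive arrays, with -0.76 ± 0.19 in calcitriol against naive (limma adjusted p = 0.102). Bche, butyrylcholinesterase, was near the floor in EAE cord and at 33.4, 88.9 and 66.5 in naive arrays, with -1.58 ± 0.40 in placebo against naive (limma adjusted p = 0.152). Maoa, which encodes a monoamine oxidase, lay wholly below naive cord in both EAE groups, at -0.79 ± 0.28 in placebo (limma adjusted p = 0.355). Slc6a4, the serotonin transporter, had 97.2, 71.5 and 57.6 in calcitriol arrays and 23.4, 26.8 and the floor in placebo arrays, a difference of 1.68 ± 0.46 (limma adjusted p = 1.00), and the naive arrays, from the floor to 70.0, overlapped both groups. Of 10 receptor genes outside the naming rule 3 were measured, Grid1, Gabrr1 and Gabrr2, and none passed the threshold. Against naive they differed by -0.24 ± 0.17, 0.75 ± 0.51 and -0.91 ± 0.51 in calcitriol-treated EAE and by -0.22 ± 0.17, 0.50 ± 0.51 and -0.56 ± 0.51 in placebo-treated EAE. Gabrr1 was at the floor on naive replicate 3, and Gabrr2 on calcitriol replicate 6 and placebo replicate 1.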

How the data were processed

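Spinal cord RNA was measured on 9 one-colour oligonucleotide arrays, 3 a group. The deposited table holds 1 linear signal intensity for each of 12488 probe sets and each array. The steps by which the authors made and scaled these intensities are not given in the sources used here. On each array 1.27% to 3.53% of values were below 0, and 765 values were exactly 0. The number of arrays limits the precision.

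Each array was scaled so that its mean, trimmed by 2% at each end over probe sets other than the 66 controls, equalled the common mean of 193. Values under 10% of that mean were raised to it, and log2 was taken. Probe sets above this floor on at least 3 of 9 arrays were tested in one limma fit (version 3.58.1, R 4.3.3) with a mean per group, 6 residual degrees of freedom, lmFit and eBayes with a trend, and Benjamini-Hochberg adjustment at 0.05. The procedure was tested on simulated data. It called 25.45% to 26.4% of simulated 2-fold changes and 76.5% to 78.6% of 4-fold changes. Of its calls 4.86% to 6.26% were false. Genes with several probe sets are represented by the one with a plain suffix, then the highest mean.

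Named with values were the 10 receptor genes with the smallest p per comparison, the member of each family with the highest mean naive signal, and a fixed set that included Gria2, Glra1, Glrb and Drd2, of which some members are not reported here, besides the 3 smallest p per partner list and comparison. Further genes are named where a count or range called for them, after their values were seen. The receptor genes, lists and markers were chosen with earlier results of these data known. Alternatives changed the scaling, floor, filter, zeros, weights, arrays and probe set.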

Additional observations from a re-analysis of the deposited data

How the results depend on the processing

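Of 18 alternatives, 9 of which left out 1 array, array weights changed the calls most. Under them limma called 639 probe sets in placebo against naive, where equal weights called 114, and 1014 in calcitriol against naive, where equal weights called 244. They called 2 receptor genes in placebo against naive, Gabra2 (limma adjusted p = 0.0372) and Glrb (0.0201), and 4 in calcitriol against naive, Gabra2 (0.0309), Glrb (0.0102), Chrm4 (0.0217) and Chrnd (0.0230), with naive replicate 3 weighted at 4.38 and naive replicate 2 at 0.258. Glrb, 1 gene, was also called in calcitriol against naive with exact zeros as missing (0.0494). With only the 2 groups compared, 61 and 118 probe sets were called. Without scaling the receptor medians against naive were -0.086 in placebo and -0.067 in calcitriol. Relative to the median of all probe sets, the receptor median against naive stayed between -0.22 and -0.11 in placebo over the 18 alternatives. In calcitriol it stayed between -0.17 and -0.11. Leaving out 1 array at a time gave 20 to 176 probe sets called in placebo against naive, lowest without placebo replicate 5 and highest without naive replicate 2, 75 to 392 in calcitriol against naive, lowest without calcitriol replicate 8 and highest without naive replicate 2, and 0 to 1 in calcitriol against placebo. In placebo against naive the count also moved without calcitriol replicate 6 (75), placebo replicate 1 (34), naive replicate 3 (46) or naive replicate 4 (49), and in calcitriol against naive without calcitriol replicate 6 (130) or naive replicate 3 (115). Leaving out 1 array gave 0 to 1 receptor genes called in calcitriol against naive, receptor medians of -0.23 to -0.12 in placebo against naive and of -0.026 to 0.080 in calcitriol against placebo, and in the last comparison a median relative to all probe sets of -0.017 to 0.085, each time turning negative without placebo replicate 1.

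Among the genes and comparisons named by smallest p, family or the fixed set, 978 alternative differences kept direction and side of the threshold, 8 newly passed it and 21 changed sign. Leaving out an array of the group not compared, dropping the filter or fitting only the 2 groups compared cannot move a difference. The 978 include such cases. No receptor gene passed in the main fit, so none could lose a call, and the 978 do not measure how stable the differences are. Genes named after their values were seen, among them Chrna1, Chrna6 and Adra1b, are not in these counts. In placebo against naive the sign changed without scaling for Gabbr1 (0.045), Grin2d (0.083) and Htr3a (0.044), with zeros as missing for Grm8 (-0.29), and for Grik5 under array weights (-0.16) or its brighter probe set (-0.15). In the same comparison, leaving out 1 array gave ranges of -0.050 to 0.42 for Grik5, -0.17 to 0.085 for Grin2d, -0.29 to 1.34 for Grm8 and -0.15 to 0.028 for Htr3a. In calcitriol against placebo it changed with zeros as missing for Chrng (0.18) and with the brighter probe set for Gria2 (-0.29), and leaving out 1 array gave -2.51 to 0.18 for Chrng, -0.98 to 0.21 for Drd2, -0.063 to 0.0052 for Htr3a and -0.094 to 0.14 for Glra1. In calcitriol against naive it changed with zeros as missing for Grm8 (-0.071, and -0.071 to 1.56 with 1 array left out) and with the brighter probe set for Grik2 (-0.028). The cause of these changes was not tested beyond what the alternatives themselves remove. No paired analysis was possible because the groups share no replicate number. Signals near the floor of 19.3 carry no order.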
